A study of Mus musculus with 15 samples.

Results

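The 10 genes described here encode proteins that sit at the places where a heart muscle cell bears mechanical load: the Z-disc, which anchors the thin filaments of neighbouring sarcomeres, the costamere, which ties the Z-disc to the cell membrane, the intercalated disc, which joins cells end to end, and the desmin filaments between them. They were chosen by name, as genes of this group that respond to stretch: Ankrd1, Csrp3, Fhl1, Xirp1, Xirp2, Nrap, Flnc, Actn1, Des and Enah. Earlier results of these data were known when they were chosen. All 10 were among the 15258 genes of the deposited tables, and all 10 were among the 11018 genes tested, so none was lost to the filter on low values. Left ventricular RNA came from male C57BL/6NRj mice that had sham surgery with a saline minipump (sham saline), transverse aortic constriction with a saline minipump (TAC saline) or the same constriction with a neuregulin-1 minipump (TAC NRG), with 5 libraries in each group. Constriction narrows the aorta and raises the pressure that the left ventricle works against, and neuregulin-1 is a growth factor ligand of ERBB receptors. There was no sham group with neuregulin-1, so its effect was measured only under constriction. No source used here states the age of the mice, the dose or the time of sampling. Nor do the labels tie each library to its own mouse, so the p-values rest on the spread among these libraries, which may be technical.

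As background, the proteins of this group share the work of carrying force and of sensing it. Ankrd1 (cardiac ankyrin repeat protein), Csrp3 (muscle LIM protein) and Fhl1 (a protein of LIM domains) bind titin or the Z-disc, and Ankrd1 and Csrp3 are also found in the nucleus. Xirp1 (Xin), Xirp2 and Nrap bind actin at the intercalated disc and in assembling myofibrils. Flnc (filamin C) and Actn1 (alpha-actinin-1) cross-link actin, Des (desmin) forms the intermediate filaments of muscle, and Enah (Mena) lengthens actin filaments. The adult heart muscle cell uses mainly another alpha-actinin, Actn2, while Actn1, Enah and to a lesser degree Des are also made by smooth muscle and by some non-muscle cells.

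The upstream sequence of the 3 members with the largest mean rise in TAC saline is shown first, for the elements of load-responsive muscle genes that it holds. RefSeq windows on GRCm38.p6, 250 bases before to 50 after a start, were matched by symbol for 9 of the 10 members (12 windows), and Xirp1 had no entry. This is not the GRCm39 build of the deposited tables. Capitals mark matches, on either strand, to the M-CAT element CATTCC (bound by TEAD factors), the CArG box (bound by SRF), the MEF2 site or the GATA element AGATAA. The first window is chr19:36119795-36120094 on the minus strand, the second chr2:67445752-67446051 on the plus strand, and the third chrX:56779433-56779732 on the plus strand.
Ankrd1: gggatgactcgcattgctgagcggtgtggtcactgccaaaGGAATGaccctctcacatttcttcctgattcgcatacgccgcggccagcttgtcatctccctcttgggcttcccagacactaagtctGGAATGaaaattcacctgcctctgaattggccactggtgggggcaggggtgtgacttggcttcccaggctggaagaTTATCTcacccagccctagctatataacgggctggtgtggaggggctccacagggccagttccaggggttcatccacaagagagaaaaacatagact
Xirp2: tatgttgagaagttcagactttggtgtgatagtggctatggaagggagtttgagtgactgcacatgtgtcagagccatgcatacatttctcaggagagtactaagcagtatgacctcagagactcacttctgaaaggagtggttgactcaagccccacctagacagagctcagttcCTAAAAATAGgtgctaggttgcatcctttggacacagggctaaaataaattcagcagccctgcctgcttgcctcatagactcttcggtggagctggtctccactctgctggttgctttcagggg
Fhl1: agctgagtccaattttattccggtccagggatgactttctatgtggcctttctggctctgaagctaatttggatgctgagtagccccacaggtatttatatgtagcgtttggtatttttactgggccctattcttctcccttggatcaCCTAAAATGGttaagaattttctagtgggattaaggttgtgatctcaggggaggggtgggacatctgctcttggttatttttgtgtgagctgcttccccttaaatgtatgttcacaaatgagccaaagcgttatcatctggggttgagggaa
In the Ankrd1 window the capitals are GGAATG, the reverse complement of the M-CAT element, beginning 210 and 123 bases before the start, and TTATCT, the reverse complement of the GATA element, beginning 47 bases before it. The Xirp2 window held a MEF2 match beginning 74 bases before the start and the Fhl1 window a CArG box beginning 102 bases before it. The other Fhl1 window, not shown, held none of the 4 motifs. Its transcribed part was found in the GENCODE vM21 transcripts, as were those of the Ankrd1 and Xirp2 windows. The transcribed part of the Fhl1 window shown was not found there, so the CArG box lies before a start known here from RefSeq only. Among members, M-CAT was found for Ankrd1 and Flnc, and each of the other 3 motifs for 1 member. Of all 32851 RefSeq windows of the same length, 14.7% held an M-CAT element, 1.63% a CArG box, 3.19% a MEF2 site and 11.2% the GATA element. These matches describe letters in a window and show no binding.

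TAC saline against sham saline asks what the pressure load did to these genes. All 10 rose, by 0.31 (Des) to 1.10 (Ankrd1) on the log2 scale, with a median log2 fold change of 0.71 where the median of all tested genes was -0.01. With limma, 10.7% of tested genes passed at an adjusted p under 0.05, 6.47% as higher and 4.24% as lower. For 8 of the 10 members, all but Enah and Actn1, every TAC saline library lay above every sham library, where 4.72% of tested genes were separated upward and 3.68% downward. Because earlier results of these data were known at the choice of members, these counts and those below are not independent support. Levels are given in CPM on the authors' scaling (the antilog of the deposited value over 1000), for replicates 1 to 5 in that order, and fold changes carry their standard error (SE). These are changes in bulk tissue, in which more cells of a type and more RNA per cell cannot be told apart.

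Of the 3 titin and Z-disc signalling proteins, Ankrd1 stood at 549, 613, 574, 619 and 413 CPM in sham and at 1404, 978, 938, 1071 and 1602 CPM in TAC saline. The lowest TAC saline library was above the highest sham library, and replicates 1 and 5 were the high ones. The log2 fold change was 1.10 ± 0.13 (SE; limma adjusted p = 1.0e-05). Fhl1, whose mutation in people causes muscle and heart muscle disease, was nearly constant in sham at 79.9, 80.3, 76.1, 81.9 and 80.3 CPM, and stood at 174, 108, 105, 131 and 261 CPM in TAC saline. Here too replicates 5 and 1 were highest, and the rise of 0.88 ± 0.21 had the widest SE of the 10 members (limma adjusted p = 0.00740). The coefficient of variation of Fhl1 was 2.73% in sham and 41.7% in TAC saline. With a robust estimate of spread, which lets single genes keep a larger variance, the limma adjusted p of Fhl1 was 0.0646. Csrp3 stood at 2157, 2114, 1867, 2172 and 2161 CPM in sham and at 3366, 2627, 2928, 2446 and 3155 CPM in TAC saline, a rise of 0.46 ± 0.10 (limma adjusted p = 0.00358). Its groups did not overlap, though the gap between 2172 and 2446 CPM was smaller than the TAC saline SD of 376 CPM.

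**Figure D1:**
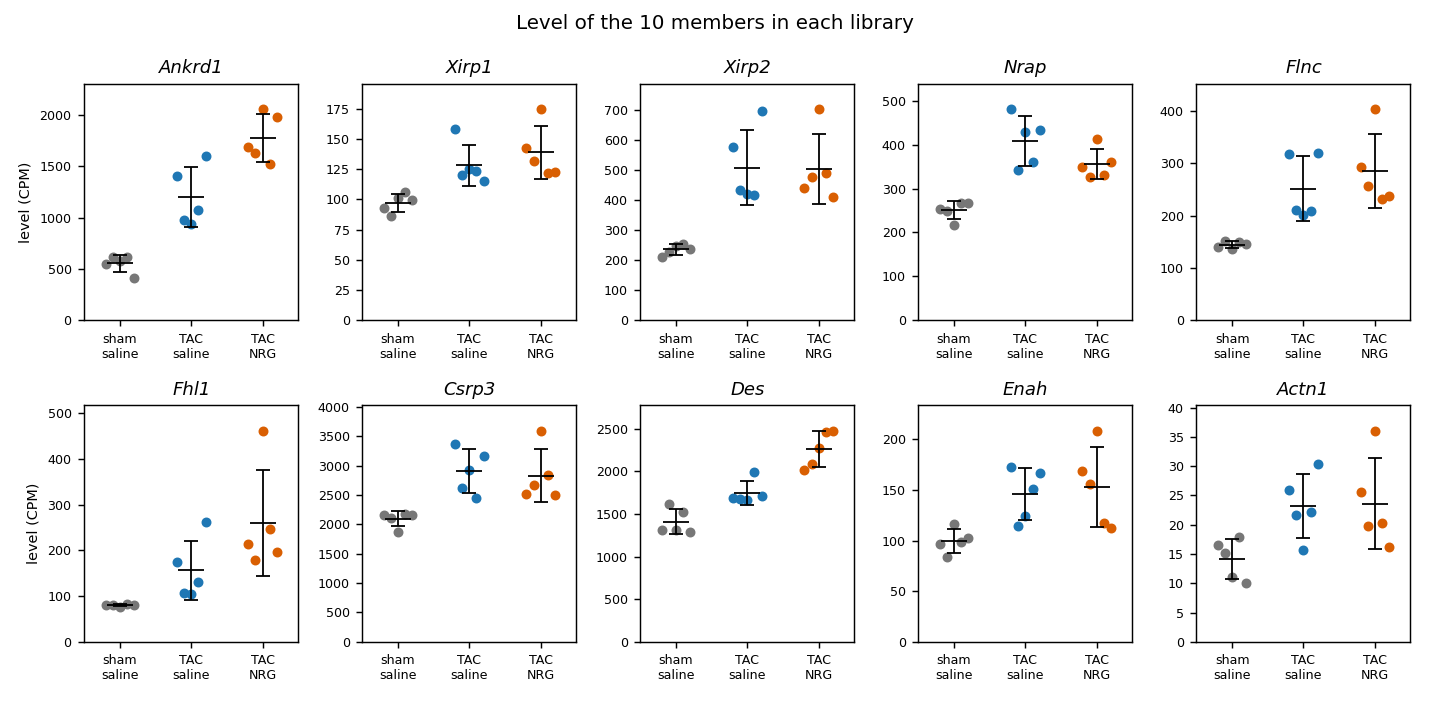
Level of each member in CPM (vertical axis, from 0) in the 5 libraries of sham saline, TAC saline and TAC NRG, with 1 point per library and the mean ± SD in black. Every TAC library is above every sham library for 8 members, Enah and Actn1 overlap, and for Des every TAC NRG library is also above every TAC saline library.

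The 3 actin-binding repeat proteins rose by unequal amounts. Xirp2 stood at 211, 226, 248, 254 and 237 CPM in sham and at 575, 433, 419, 418 and 696 CPM in TAC saline, a rise of 1.08 ± 0.13 (limma adjusted p = 1.1e-05). Its relative Xirp1 stood at 92.8, 86.4, 101, 106 and 99.2 CPM in sham and at 158, 121, 125, 123 and 115 CPM in TAC saline, a rise of 0.40 ± 0.10 (limma adjusted p = 0.0117). Replicates 5 and 1 were highest for Xirp2, whereas for Xirp1 replicate 1 was highest and replicate 5 lowest of TAC saline. Without TAC saline 1 the limma adjusted p of Xirp1 was 0.0524. Nrap, an actin-binding LIM and nebulin-repeat protein of the intercalated disc, stood at 217 to 267 CPM in sham and at 482, 344, 429, 360.1 and 434 CPM in TAC saline. Its rise of 0.70 ± 0.09 passed at a limma adjusted p of 2.3e-05, with no overlap between the groups.

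Among the actin cross-linkers and filaments, Flnc stood at 137 to 151 CPM in sham and at 319, 211, 201, 208 and 319.7 CPM in TAC saline. Replicates 1 and 5 formed the upper pair and the rise was 0.77 ± 0.14 (limma adjusted p = 0.000651). Des had the smallest rise, 0.31 ± 0.09, from 1309, 1614, 1313, 1527 and 1291 CPM to 1691, 1671, 1662, 1991 and 1716 CPM (limma adjusted p = 0.0194). Its groups were separated only narrowly, between 1614 and 1662 CPM. The Des call was lost without sham 1, 3 or 5 or TAC saline 4 (limma adjusted p of 0.0555 to 0.0658). Enah stood at 96.6, 83.7, 116.6, 98.4 and 103 CPM in sham and at 173, 115, 124, 151 and 166 CPM in TAC saline, a rise of 0.54 ± 0.14 (limma adjusted p = 0.0135) with 1 TAC saline library inside the sham range. Actn1 was read least, with 33 to 126 reads in the libraries of these 2 groups, at 16.6, 15.2, 11.01, 17.8 and 10.02 CPM in sham and 25.9, 21.6, 15.8, 22.1 and 30.4 CPM in TAC saline. Only TAC saline 3 lay inside the sham range. It rose by 0.72 ± 0.20 (limma adjusted p = 0.0224). The Enah call was lost without TAC saline 1 or 5 (limma adjusted p of 0.0532 and 0.0512), and the Actn1 call without sham 3 or 5 or TAC saline 1 or 5 (limma adjusted p of 0.0650 to 0.0872). The count of members past the threshold was thus 7 without TAC saline 1 and 8 to 10 without any other single library.

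**Figure D2:**
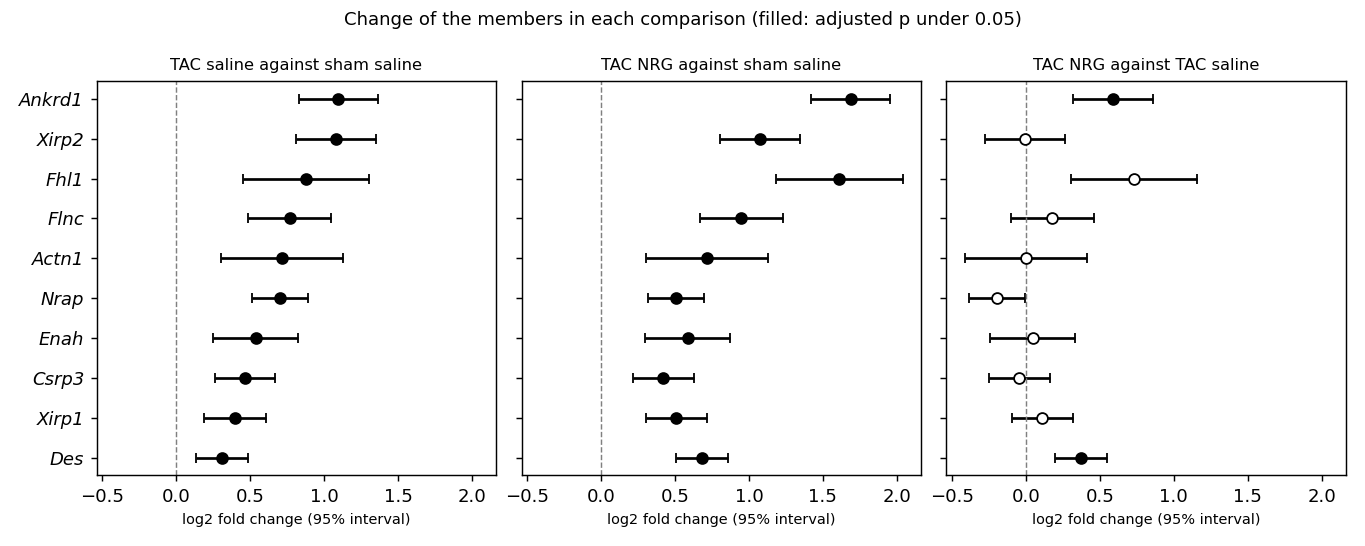
Log2 fold change of each member (horizontal axis) with its 95% interval from limma in the 3 comparisons, ordered by the change in TAC saline against sham saline. Filled points passed an adjusted p of 0.05: all 10 in both comparisons with sham saline, and Ankrd1 and Des in TAC NRG against TAC saline.

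TAC NRG against TAC saline asks what neuregulin-1 added under constriction. Ankrd1 and Des rose further, by 0.59 ± 0.13 and 0.37 ± 0.09 on the log2 scale (limma adjusted p = 0.0221 and 0.0254), and the other 8 members did not pass. Here 1.3% of tested genes passed, 0.672% as higher and 0.626% as lower. Ankrd1 stood at 1685, 1633, 2060.3, 1520.2 and 1985 CPM in TAC NRG, against 938 to 1602 CPM in TAC saline. Replicate 4 of TAC NRG lay inside the TAC saline range, while the other 4 lay above it. Des stood at 2016, 2087, 2277, 2468 and 2479 CPM, all above the highest TAC saline library at 1991 CPM. It was the only member without overlap between these groups, where 1.81% of tested genes were separated upward and 1.25% downward. The highest Des values were those of TAC NRG 5 and 4, the libraries with the fewest reads and the largest haemoglobin shares (0.350% and 0.366% of reads, against 0.189% to 0.222% in the other 3). The part of depth or blood RNA in the Des values was not tested.

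Neither call held under every library left out. Without TAC NRG 4 and 5 together, Ankrd1 differed by 0.61 and Des by 0.29, and neither passed (limma adjusted p = 0.0800 and 0.210). Leaving out any 1 library kept both differences above 0, but Ankrd1 passed no longer without TAC saline 2, 3 or 4 or TAC NRG 5 (limma adjusted p of 0.0517 to 0.0627). Des passed no longer without TAC saline 1, 2 or 5 or TAC NRG 4 or 5 (limma adjusted p of 0.0509 to 0.0873). Scaled by total reads alone, Ankrd1 had a limma adjusted p of 0.0546, and with a robust spread it was 0.0765. Des had a limma adjusted p of 0.0643 when only these 2 groups were fitted.

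The widest difference was that of Fhl1, which stood at 215, 178, 462, 247 and 196 CPM in TAC NRG. The difference from TAC saline was 0.73 ± 0.21, larger than that of Ankrd1, and did not pass (limma adjusted p = 0.0780). TAC NRG 3 stood far above the rest of its group and TAC saline 5, at 261 CPM, above 4 of the 5 TAC NRG libraries. Without TAC saline 5 the difference was 0.94 (limma adjusted p = 0.0102) and without TAC NRG 2 it was 0.84 (limma adjusted p = 0.0379). Without TAC NRG 3 it was 0.50 (limma adjusted p = 0.123), the lowest value with any 1 library left out. Over all alternatives the limma adjusted p ran from 0.0102 to 0.248. The remaining 7 members had smaller differences, from -0.20 ± 0.09 for Nrap to 0.18 ± 0.14 for Flnc (limma adjusted p of 0.306 to 0.999). The 95% interval of the log2 difference ran from -0.28 to 0.26 for Xirp2, from -0.25 to 0.16 for Csrp3, from -0.10 to 0.32 for Xirp1 and from -0.41 to 0.41 for Actn1. It ran from -0.24 to 0.33 for Enah and from -0.10 to 0.46 for Flnc. For Nrap it ran from -0.38 to -0.01, on the low side of 0 before adjustment. TAC NRG levels of Nrap were 349.8, 328, 413, 332 and 360.0 CPM, with replicates 2 and 4 below the lowest TAC saline library. A missed threshold does not show that these levels were alike, and for Actn1 changes of up to 1.33-fold in either direction lay within the interval.

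TAC NRG against sham saline compares the treated, constricted ventricle with the sham-operated one, and shares its sham libraries with the first comparison and its TAC NRG libraries with the second. All 10 members rose, with a median log2 fold change of 0.70 beside -0.01 for all tested genes. With limma, 16.1% of tested genes passed, 8.74% as higher and 7.39% as lower. Ankrd1 rose by 1.69 ± 0.13, to 3.22-fold (limma adjusted p = 6.5e-09), and Fhl1 by 1.61 ± 0.21, to 3.05-fold (limma adjusted p = 8.4e-06). Xirp2 rose by 1.08 ± 0.13, Flnc by 0.95 ± 0.14 and Des by 0.68 ± 0.09. Actn1 rose by 0.72 ± 0.20, Enah by 0.59 ± 0.14, Xirp1 and Nrap each by 0.51, and Csrp3 by 0.42 ± 0.10. The same 8 members as under saline had no overlap with sham, where 6.23% of tested genes were separated upward and 5.45% downward. Xirp2 stood at 441, 478, 703, 489 and 409 CPM in TAC NRG and Flnc at 293, 257, 404, 232 and 237 CPM, with replicate 3 well above the others for both. Csrp3 stood at 2519, 2670.2, 3594, 2833 and 2503 CPM and Xirp1 at 143, 132, 175, 122 and 123 CPM, again highest in replicate 3. Enah stood at 169, 156, 208, 117.3 and 112 CPM and Actn1 at 25.6, 19.7, 36.0, 20.2 and 16.1 CPM. For both genes replicate 5 alone reached into the sham range. Actn1 alone lost its call when a library was left out, without sham 3 or 5 or TAC NRG 3 (limma adjusted p of 0.0519 to 0.0585). All 10 passed without TAC NRG 4 and 5.

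Libraries of a group differed in many members at once. Replicate 3 of TAC NRG held the highest level of 9 members, all but Des, and of 23.7% of all tested genes. Its median deviation from the group mean was 0.42 (log2) over the members and 0.02 over all tested genes. In TAC saline, replicates 1 and 5 held the highest level of 4 and 5 members, and of 17.4% and 20.1% of all tested genes. Their median deviations over the members were 0.25 and 0.29, while replicates 2, 3 and 4 lay at -0.21, -0.23 and -0.14. The median over all tested genes was within 0.02 of 0 in every TAC saline library. Sham libraries spread less, with medians from -0.07 to 0.10. The mitochondrial share of reads was 26.6% and 26.0% in TAC saline 1 and 5, 29.3% and 29.6% in replicates 2 and 3, and 26.9% in replicate 4. It was 24.4% in TAC NRG 3, against 23.7% to 29.0% in the rest of that group. Its part in the deviations was not tested.

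**Figure D3:**
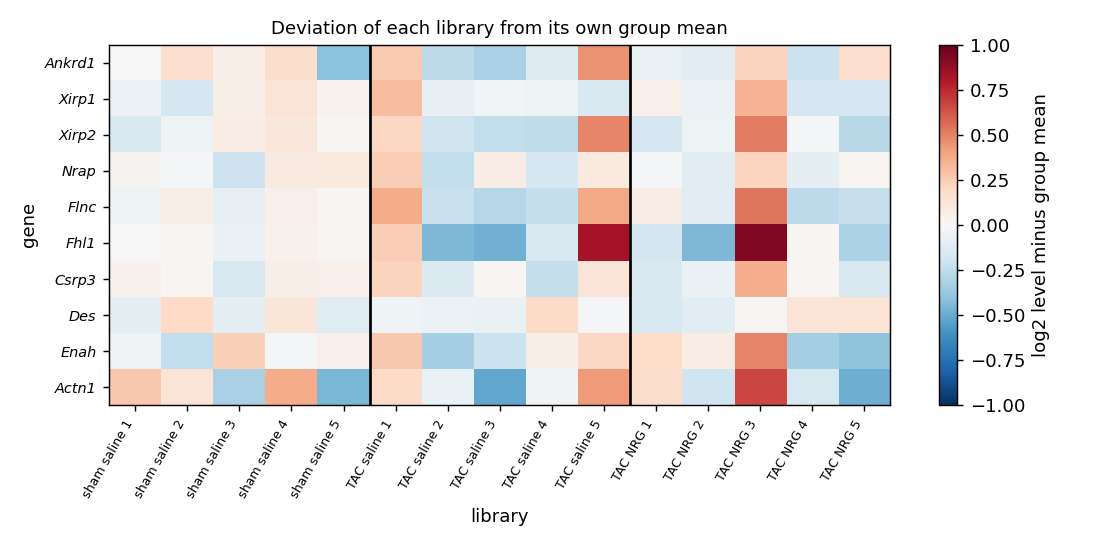
Log2 level of each member in each library minus the mean of its own group (colour; red above the mean, blue below), with black lines between groups. TAC saline 1 and 5 and TAC NRG 3 are red for most members, Fhl1 deviates most, and Des within TAC NRG is highest in replicates 5 and 4.

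Ratios of a member to a named partner in the same library do not depend on how that library was scaled. For 6 pairs and 3 comparisons, the exact two-sided permutation test of 5 against 5 libraries was adjusted over the 18 tests, and 0.00794 is the smallest p it can give. The log2 ratio of Xirp1 to Xirp2 was -1.28 ± 0.07 in sham libraries, -1.96 ± 0.36 with TAC saline and -1.84 ± 0.17 with TAC NRG (SD, n = 5 each). Both TAC groups lay below sham with no overlap (exact permutation p = 0.00794, adjusted p = 0.0238 for each), so Xirp2 gained on Xirp1. TAC saline 5 stood apart at -2.60, where the other 4 of its group were at -1.86 to -1.74. The log2 ratio of Fhl1 to Fhl2, a relative with the same LIM domain layout, was -4.47 ± 0.13 in sham libraries, -3.68 ± 0.56 with TAC saline and -2.69 ± 0.51 with TAC NRG (SD, n = 5 each). It was higher than in sham in all libraries of both TAC groups (exact permutation p = 0.00794, adjusted p = 0.0238 for each). With any 1 sham library left out, TAC saline against sham no longer passed (exact permutation adjusted p of 0.0612 to 0.0714), with differences of 0.76 to 0.83. The groups still did not overlap, with TAC saline at -4.16 or above and sham at -4.33 or below. Between the TAC groups the Fhl1 to Fhl2 ratio differed by 0.99 (exact permutation p = 0.0317, adjusted p = 0.0714), and by 1.21 without TAC saline 5 (exact permutation adjusted p = 0.0204). Fhl2 itself differed from sham by 0.08 ± 0.07 in TAC saline and -0.17 ± 0.07 in TAC NRG and did not pass (limma adjusted p = 0.547 and 0.119).

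The ratio of Des to Vim, the intermediate filament of fibroblasts, endothelium and other non-muscle cells, was compared in the same way. Its log2 value was 1.90 ± 0.22 in sham libraries, 0.90 ± 0.38 with TAC saline and 1.52 ± 0.34 with TAC NRG (SD, n = 5 each). It was lower in TAC saline than in sham with no overlap (exact permutation p = 0.00794, adjusted p = 0.0238). This passed no longer without sham 1, 2, 4 or 5 (exact permutation adjusted p = 0.0571 each), with differences of -1.05 to -0.99 and still no overlap. It did not pass for TAC NRG against TAC saline (difference 0.62, exact permutation adjusted p = 0.0714) or against sham (difference -0.39, exact permutation adjusted p = 0.0833), but did pass without TAC saline 3 in the former (0.0357) and without TAC NRG 5 in the latter (0.0408). Vim itself rose by 1.32 ± 0.16 in TAC saline and by 1.07 ± 0.16 in TAC NRG against sham (limma adjusted p = 1.1e-05 and 4.3e-05). The ratio of Flnc to Flna, the filamin of non-muscle cells, was higher in TAC NRG than in sham by 0.33 (exact permutation p = 0.00794, adjusted p = 0.0238) and differed by 0.08 in TAC saline against sham (exact permutation adjusted p = 0.610). The former passed no longer without sham 4 (exact permutation adjusted p = 0.0571). For TAC NRG against TAC saline the Flnc to Flna difference was 0.25 (exact permutation adjusted p = 0.0833), and it passed without TAC saline 3 (0.0476). With all libraries, Actn1 to Actn2 and Enah to Vasp did not pass in any comparison (exact permutation adjusted p of 0.0714 to 0.857). In TAC saline against sham, Actn1 to Actn2 passed without TAC saline 3 (0.0357) and Enah to Vasp without sham 3 (0.0476). For TAC NRG against sham, Enah to Vasp passed without TAC NRG 4 and 5 (0.0402). The Actn1 to Actn2 difference in TAC saline against sham was 0.47, with SDs of 0.39 and 0.37 in the groups.

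**Figure D4:**
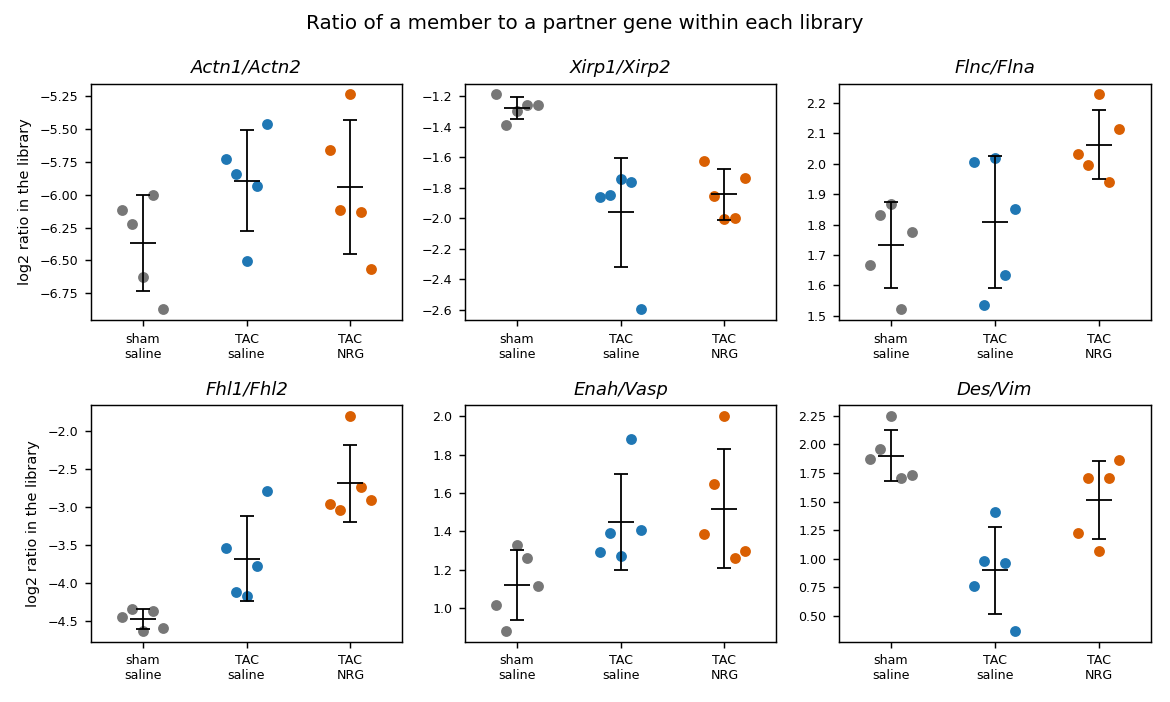
Log2 ratio of a member to its partner gene (vertical axis) in each library of sham saline, TAC saline and TAC NRG, with 1 point per library and the mean ± SD in black. Xirp1/Xirp2 is lower and Fhl1/Fhl2 higher in both TAC groups than in any sham library, and Des/Vim is lower than sham in every TAC saline library.

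The members stand among larger sets of genes for the same structures. Of 22 tested Z-disc partners (23 listed), 8 rose and 1 fell in TAC saline against sham, with a list median of 0.09. Synpo2l, an actin-binding Z-disc protein, rose by 1.30 ± 0.15 (limma adjusted p = 7.7e-06), Pdlim1, a PDZ and LIM protein, by 0.70 ± 0.11, Myot (myotilin) by 0.69 ± 0.11, and Ankrd23, an ankyrin repeat relative of Ankrd1, by 0.67 ± 0.15. The gene that fell was the formin Fhod3, by 0.33 ± 0.08, which was named after its value was seen. Against sham, TAC NRG had 9 of them higher and 1 lower, with Pdlim5, a PDZ and LIM protein of the Z-disc, higher by 0.84 ± 0.09. Of 24 costamere and integrin adhesion genes, 4 rose in TAC saline, with a list median of 0.11: Zyx (zyxin) by 0.63 ± 0.12, Parva (alpha-parvin) by 0.45 ± 0.11, Tln1 (talin-1) by 0.38 ± 0.10 and Itgb1 (integrin beta-1) by 0.33 ± 0.08. Against sham, 5 rose in TAC NRG, those 4 and the laminin receptor subunit Itga7, by 0.44 ± 0.09.

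Of 13 intercalated disc genes, none rose and 1 fell in TAC saline against sham with limma, with a list median of -0.09. Before adjustment of p (threshold 0.05), 1 was higher and 3 were lower. The share of all tested genes under that unadjusted threshold was not computed, so counts before adjustment, here and below, have no background. The gene that fell was Tmem65, which helps to place connexin-43 at the disc, by 0.33 ± 0.09. It passed no longer when scaled by total reads alone (limma adjusted p = 0.0629) or without TAC saline 5 (0.0582). Tln1 passed no longer without sham 3 or TAC saline 1 (limma adjusted p = 0.0510 and 0.0577). For TAC NRG against sham 3 disc genes rose, with Pkp2 (plakophilin-2) higher by 0.46 ± 0.08, Jup (plakoglobin) by 0.31 ± 0.08 and Gja1 (connexin-43) by 0.21 ± 0.07, and Tmem65 fell by 0.53 ± 0.09. The Gja1 call was lost in 12 of 23 alternatives, among them each of sham 2 to 5 and TAC NRG 1 to 3 left out (limma adjusted p of 0.0525 to 0.149). Of 7 tested intermediate filament genes and linkers (10 listed), 5 rose in TAC saline, with a list median of 0.53. Besides Vim these were Lmnb1 and Lmna (lamins of the nuclear envelope), by 1.66 ± 0.36 and 0.53 ± 0.11, Nes (nestin), by 0.87 ± 0.21, and Plec, the linker plectin, named after its value was seen, by 0.26 ± 0.08. Lmnb1 was read at a low level, with a mean of only 8.37 CPM in TAC saline.

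Of 13 tested paralogues of the members (15 listed), 5 rose and none fell in each comparison with sham by limma, and before adjustment of p 0 were lower in TAC saline and 1 in TAC NRG. In TAC saline Csrp2 rose by 0.80 ± 0.16, Flna by 0.69 ± 0.13 and Csrp1 by 0.56 ± 0.14, genes that smooth muscle and non-muscle cells express. The other 2 that rose were the striated muscle genes Ankrd23, given with the Z-disc partners, and Actn2, named after its value was seen. Of 11 tested regulators and textbook targets of SRF, MRTF and YAP (12 listed), 2 rose in TAC saline. They were Ccn2 (connective tissue growth factor, a YAP target), by 1.01 ± 0.23, and Mrtfa, a cofactor of SRF, by 0.69 ± 0.21. Mrtfa passed no longer without a filter on low values (limma adjusted p = 0.0547) or without sham 2, 3 or 5 or TAC saline 1, 2, 4 or 5 (limma adjusted p of 0.0581 to 0.117). Ccn2 did not pass with a robust spread (limma adjusted p = 0.0594). From sham to TAC NRG Ccn2 rose by 1.45 ± 0.23 and the YAP target Amotl2 fell by 0.46 ± 0.14. The Amotl2 call was lost without sham 5 or TAC NRG 1 (limma adjusted p = 0.0789 and 0.0615). It was also lost with total reads as the only scaling (limma adjusted p = 0.0660) and without TAC NRG 4 and 5 (0.0718). With neuregulin-1 against saline under constriction, 0 of the 86 tested genes of these 6 lists passed by limma, where 1.3% of all tested genes did. Of the 86, 18 had an unadjusted p under 0.05, 8 higher and 10 lower. The 5 of them with the lowest p were chosen after their values were seen. Cdh2 (N-cadherin) differed by 0.47 ± 0.12 (limma adjusted p = 0.0504), Pdlim5 by 0.34 ± 0.09 (0.0621) and Fhl2 by -0.25 ± 0.07 (0.0802). Gja1 differed by 0.25 ± 0.07 (limma adjusted p = 0.0916), and Lims1, the adhesion adaptor PINCH-1, by -0.38 ± 0.11 (0.0937).

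The genes whose pattern was most like that of a member were found by the root-mean-square difference of log2 values, relative to the sham mean, over the 15 libraries. For Ankrd1 they were Synpo2l (0.28), Uck2, a uridine-cytidine kinase (0.29), and Vcan, the matrix proteoglycan versican (0.31). For Fhl1 they were Fgl2 (0.29), Uck2 (0.30) and Pfkp, the platelet phosphofructokinase (0.31). Uck2 was thus near both members. For Des they were Nqo1, a quinone reductase (0.12), P4hb, protein disulfide isomerase (0.13), and Cidea (0.13). For Xirp2 they were Fxyd5 (0.19) and the matrix genes Col15a1 (0.21) and Pcolce (0.22). Nrap was nearest to the small heat shock gene Hspb6, Tuba1a and Arhgdib (0.14 each), and Actn1 to Flna (0.19), Itga5 (0.19) and Rhoc (0.20). For Xirp1 the nearest genes were Sorbs2, a Z-disc adaptor (0.09), Picalm (0.09) and Arhgap1 (0.11). For Flnc they were Msn (0.16), Col4a1 (0.17) and Fbln2 (0.18), and for Csrp3 Prnp (0.12), Rras2 (0.12) and Hspb1 (0.13). For Enah they were Plekhg2 (0.14), Sorbs2 (0.17) and Anxa5 (0.17). Among the members the closest pair was Csrp3 and Xirp1 (0.16), and the widest apart were Csrp3 and Ankrd1 (0.85). These distances describe the libraries and mix the group differences with the spread inside groups. They were not scaled by the size of change, so genes with small changes, such as Csrp3 and Xirp1, lie close together and far from Ankrd1.

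Markers of the cells that the tissue could hold were summed in each library. The 8 cardiomyocyte markers were all present and summed to 71656 to 78731 CPM in sham libraries, 65262 to 78389 with TAC saline and 64880 to 81948 with TAC NRG. Of them Actc1 rose and Tnni3, Pln and Ryr2 fell in TAC saline against sham, and Tnnt2 rose by 0.35 ± 0.08 in TAC NRG against TAC saline (limma adjusted p = 0.0351). Ryr2 passed no longer in 11 of 22 alternatives, and Tnnt2 no longer without TAC saline 1, 4 or 5 or TAC NRG 4 or 5 (limma adjusted p of 0.0648 to 0.108). Fibroblast markers rose for 4 of 7 in TAC saline, Col1a1 by 1.70, Mfap5 by 1.64, Lum by 1.11 and Tcf21 by 0.61, and Gsn fell. In TAC NRG against sham Col1a1, Dcn, Lum and Mfap5 rose and Gsn fell. The 7 markers summed to 1757 to 1878 CPM in sham libraries, 1675 to 2162 with TAC saline and 1738 to 2155 with TAC NRG. Gsn and Dcn weighed most in these sums (means of 703 and 766 CPM in TAC saline), so the sums do not show the rises of the other markers. Of 8 smooth muscle and pericyte markers 0 rose and Abcc9 fell in TAC saline by limma (4 higher and 2 lower at an unadjusted p under 0.05), with summed levels of 649.8 to 756 CPM in sham and 625 to 794 CPM in TAC saline. Against sham, in TAC NRG Cnn1 and Tagln rose and Abcc9 and Rgs5 fell, and their sum was 606 to 739 CPM. Macrophage markers rose for 4 of 6 in TAC saline (405 to 675 CPM in sham, 456 to 859.97 in TAC saline). Without TAC saline 4, Cd68, Adgre1 and C1qb no longer passed (limma adjusted p of 0.0688 to 0.110), and each was also lost without TAC saline 1 or 2 and without some of the sham libraries. In the same comparison endothelial markers rose for 0 of 6 by limma, with 2 higher at an unadjusted p under 0.05 (481 to 525 and 517 to 602 CPM). Blood markers, haemoglobin genes and Alas2, rose for 5 of 5 in TAC NRG against TAC saline, the comparison in which Ankrd1 and Des rose, with sums of 1703 to 3488 CPM against 980.3 to 1474 CPM. Without TAC NRG 4, Alas2, Hbb-bt, Hba-a1 and Hbb-bs no longer passed (limma adjusted p of 0.0511 to 0.0668), and all but Hbb-bt were also lost without TAC NRG 5 (0.0503 each). Without TAC NRG 4 and 5 together these 4 differed by 0.64 to 0.75 (limma adjusted p of 0.167 to 0.197). With a robust spread they did not pass either (limma adjusted p of 0.0677 to 0.123). Endothelial markers summed to 432 to 504 CPM in TAC NRG, below every TAC saline library, and 3 of the 6 were lower at an unadjusted p under 0.05. Of them Cdh5 fell, by 0.43 ± 0.09 (limma adjusted p = 0.0157), a call lost without TAC saline 1 (0.0579) or 5 (0.0509) or without TAC NRG 4 and 5 (0.0558). Of 5 atrial markers Dkk3 rose in both comparisons with sham, and the sum was 4.35 to 11.6 CPM in all libraries. Sln and Bmp10 were absent from the deposited tables, and Myl7 did not pass the filter on low values. Of 7 genes listed for skeletal muscle, Myh1 and Myh2 were likewise absent from the deposited tables, and Myh4 had 0 reads in every sham library. Ckm fell in TAC NRG against sham, but had a mean of 2527 CPM in sham, so it is not taken here as a sign of skeletal muscle. The Ckm call was lost in 7 of 23 alternatives, among them total reads as the only scaling (limma adjusted p = 0.0592) and without TAC NRG 3 (0.0881). The part of blood and other cell types in the members' values was not tested.

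The libraries held 2.02 to 5.62 M reads, and the members 33 to 15348 reads per gene and library. Mitochondrial genes took 31.1% ± 0.47 of the reads of sham libraries, against 27.7% ± 1.62 for TAC saline and 25.8% ± 2.35 for TAC NRG (SD, n = 5 each). When libraries were scaled by total reads alone, the median log2 fold change of all tested genes was 0.10 in TAC saline against sham and 0.08 in TAC NRG against sham. Then 84.9% and 75.9% of the genes past the threshold were higher, against 60.4% and 54.2% on the deposited scaling. In TAC NRG against TAC saline 32.4% were higher with mitochondrial reads left out of the totals, against 51.7% on the deposited scaling. All 10 members were higher and past the threshold against sham, in both TAC groups, under these scalings too.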

How the data were processed

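RNA of frozen left ventricle was read by BRB-seq, which tags the 3′ ends of transcripts, per the labels' protocols; all 15 libraries carry the label batch 1. The submitters' processing notes name GRCm39, and no source used here names an aligner or counter. The spacing of the deposited log2 values shows how the authors made them: 0.5 was added to each read count, and the sum was multiplied by 1 factor for the library before the log. Removing the factor returned whole reads, to within 0.05, for 98.8% to 99.6% of values.

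The test was limma (version 3.58.1, R 4.3.3) on those log2 values, with all 3 groups in 1 model and the spread allowed to follow the mean level. The filter asked for 2.95 reads per M, equal to 10 reads in the median library, in 5 or more libraries, and 15 reads overall. Two-sided p-values were adjusted by Benjamini-Hochberg over 11018 genes, and "rose" and "fell" mean an adjusted p under 0.05. The members and lists were chosen with earlier results of these data known. From each list up to 4 genes past the threshold were named by size of change, and for each member up to 3 nearest genes. Alternatives covered scaling, filter, prior, spread, threshold, groups, replicate numbers and libraries left out. Removal of the length trend (GENCODE vM21 lengths) was added after seeing the data. Tables and figures used Python 3.11.15, pandas 2.3.3 and matplotlib 3.10.9. Counts of libraries in a group differed by more than sampling noise (chi-square per degree of freedom of 2.28 to 12.1).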

Additional observations from a re-analysis of the deposited data

Results flagged for a closer look

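In 3 of the 30 sets of 5 libraries (10 members in 3 groups), 1 library stood far from the other 4 on the log2 scale, by a rule (Dixon's, 95% critical value 0.71) that flags about 1 in 20 by chance. Xirp1 was at 158 CPM in TAC saline 1 and at 115 to 125 CPM in the other 4. Csrp3 was at 1867 CPM in sham saline 3 and at 2114 to 2172 CPM in the other 4. Des was at 1991 CPM in TAC saline 4 and at 1662 to 1716 CPM in the other 4. Without the library in question, Xirp1 and Des no longer passed in TAC saline against sham, as given with those genes.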

How the results depend on the processing

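In TAC saline against sham and in TAC NRG against sham, every member was higher under each alternative run, and the number past the threshold was 9 or 10 in each that kept all libraries and the 0.05 threshold. In TAC saline against sham it was 6 at an adjusted p of 0.01, and 7 to 10 when single libraries were left out. In TAC NRG against sham it was 9 to 10 when single libraries were left out. In TAC NRG against TAC saline the 2 calls became 1 with total reads as the only scaling, with total reads without mitochondrial genes, with only the 2 groups compared and with a robust spread. They became 0 at an adjusted p of 0.01 and without TAC NRG 4 and 5, and ranged from 0 to 3 when single libraries were left out. The causes were not tested. Counts over all genes ranged from 636 to 1495, 58 to 229 and 1338 to 1854 in the 3 comparisons when single libraries were left out, against 1180, 143 and 1777. They were 505, 39 and 849 at an adjusted p of 0.01. TAC NRG against TAC saline also gave 77 with only these groups and 39 without TAC NRG 4 and 5.

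Differences near 0 changed sign in TAC NRG against TAC saline, all of them not past the threshold. Actn1 was at 0.0038 with median of ratios scaling, 0.013 with voom weights, 0.0053 with a prior of 2 reads, 0.011 with the length trend removed and 0.22 without TAC NRG 4 and 5. With single libraries left out it ranged from -0.17 to 0.12. Xirp2 was at 0.11 with the length trend removed, 0.0902 without TAC NRG 4 and 5, and -0.134 to 0.11 with single libraries left out. Csrp3 was at 0.0034 without TAC NRG 4 and 5 and ranged from -0.135 to 0.011 with single libraries left out. Enah was at -0.0070 with total reads without mitochondrial genes and ranged from -0.075 to 0.147 with single libraries left out. The Actn1/Actn2 ratio was at 0.22 without TAC NRG 4 and 5. With single libraries left out, the Actn1/Actn2 ratio ranged from -0.225 to 0.11, the Xirp1/Xirp2 ratio from -0.041 to 0.172 and the Enah/Vasp ratio from -0.051 to 0.177.

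Of the 18 ratio tests 6 passed, and 3 to 9 with single libraries left out. Same-numbered libraries did not deviate together (correlations of -0.25 to 0.080), so the numbers are not known to pair them. With the replicate block the 10, 2 and 10 member calls were the same in number. For the ratios the replicate block (an exact sign-flip test of 5 pairs) left 0 past the threshold, since its adjusted p could not fall below that threshold.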
